A study of Mus musculus with 12 samples.

Results

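Primary mouse aortic smooth muscle cells (MASMC) transfected with an siRNA against Oct4 (siOCT4-DMSO, n = 3) were compared with cells that received a pooled non-target siRNA (siNT-DMSO, n = 3). These are 6 of the 12 arrays of the series, chosen by the sample titles. Cells of both groups were transfected at subconfluence for 48 h in medium without serum and then kept for 24 h with DMSO, the vehicle of the oxidized phospholipid POVPC, so transfection, serum withdrawal and DMSO are shared. The other 6 arrays carried the same siRNAs with 10 μg/mL POVPC. Strain, sex and age of the mice that gave these cells are not given in the sources used here. Nothing says whether the numbered samples came from separate cultures, so p-values measure the spread between these samples, which may be partly technical. The array carries 60641 probes, 38282 for lncRNAs and 22359 for mRNAs, and 54506 of them (33881 lncRNA and 20625 mRNA) were bright enough to test. The array files pair no gene names with the probes. Names could be given to 923 mRNA and 391 lncRNA probes from the study's supplementary tables, and those tables are lists of transcripts that had passed a threshold. Most mRNA names and most lncRNA names come from the POVPC vs. DMSO lists, a comparison that shares the 3 siNT-DMSO arrays with this one, and others from a list of antisense pairs chosen on these 6 arrays, so neither the names nor their directions are an even sample of the transcripts that moved.

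OCT4 (gene Pou5f1) is a POU-domain transcription factor known for keeping embryonic stem cells pluripotent, and it binds the octamer DNA element. In the vessel wall it can be switched on again in SMC that leave the contractile state, and such cells lose contractile proteins and take up migration, matrix production and inflammatory signalling. Long non-coding RNAs have no long reading frame, and antisense lncRNAs are transcribed from the strand opposite a protein-coding gene. Whether they change together with that gene is a usual first question about them. No probe could be named for Pou5f1 itself, so the knockdown could not be read on these arrays, and none for Acta2, Myh11 or Cnn1. The study reports that quantitative RT-PCR showed the knockdown in such cells. The SMC genes that could be named, Tagln, Smtn and Csrp1, were well above background on all 6 arrays. Their mean siNT-DMSO signals were 5.41, 5.33 and 8.72 on the normalized log2 scale, against a median of 7.12 for all mRNA probes tested. Tagln and Smtn thus read dimmer than most mRNA probes.

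Short stretches of promoter are shown first for genes that fell with the knockdown and hold the octamer. Others are shown for called interferon-stimulated genes that hold a second motif, because these sets are described below. The windows are the 250 bases before the gene's start in RefSeq (GRCm38.p6), on the gene's strand, 5′ to 3′, and capitals mark the motif. The octamer ATGCAAAT, searched on both strands, was present in 526 of 32851 promoter windows (1.6%). Among named mRNAs called lower with siOCT4 it was in 3 of 107 windows (2.8%), those of Asb1, Dll1 and Fgd3, and among those called higher in 0 of 58. RefSeq windows were at hand for 86 of the 113 named mRNAs called lower and for 47 of the 69 called higher. The match lies at position -69 from the start in Asb1 (chr1:91540315-91540564), at -219 in Dll1 (chr17:15375824-15376073, on the reverse strand of the window) and at -88 in Fgd3 (chr13:49309209-49309458).
Asb1: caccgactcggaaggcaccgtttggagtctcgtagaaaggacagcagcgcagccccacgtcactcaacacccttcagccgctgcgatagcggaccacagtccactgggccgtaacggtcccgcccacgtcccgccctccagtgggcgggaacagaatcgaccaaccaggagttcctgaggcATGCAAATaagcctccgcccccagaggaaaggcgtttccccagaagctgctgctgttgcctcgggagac
Dll1: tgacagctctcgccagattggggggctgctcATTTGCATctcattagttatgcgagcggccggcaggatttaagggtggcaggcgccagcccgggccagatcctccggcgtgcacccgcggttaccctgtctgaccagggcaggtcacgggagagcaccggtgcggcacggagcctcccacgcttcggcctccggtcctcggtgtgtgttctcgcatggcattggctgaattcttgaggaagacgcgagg
Fgd3: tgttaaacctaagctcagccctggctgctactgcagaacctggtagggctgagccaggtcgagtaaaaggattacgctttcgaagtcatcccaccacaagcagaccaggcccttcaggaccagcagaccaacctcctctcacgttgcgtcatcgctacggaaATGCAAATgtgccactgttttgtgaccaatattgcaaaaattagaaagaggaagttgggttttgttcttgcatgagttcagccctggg
Asb1, a substrate adaptor of a ubiquitin ligase, was lower with siOCT4, with -2.09 on the log2 scale (adjusted p = 0.00298). Dll1, a ligand of Notch receptors, had -1.34 (adjusted p = 0.0442), and Fgd3, an exchange factor for the small GTPase Cdc42, had -1.59 (adjusted p = 0.00436). These 3 genes were named for their promoters after the values were seen.

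The second motif, GAAA, any 2 bases and GAAA again, searched on both strands, is the core that interferon regulatory factors bind. It was in 978 of the 32851 windows (2.98%), in 6 of 107 windows of named mRNAs called lower and in 3 of 58 of those called higher. Windows were at hand for 5 of the 11 genes of the interferon-stimulated list, but not for Ccl5 or Dhx58, which were also called. Of the 5, 4 held the motif: Cxcl10 (chr5:92348890-92349139, match at position -213), Gbp2 (chr3:142620413-142620662, match at -59 on the reverse strand), Isg15 (chr4:156200819-156201068, overlapping matches at -78, -72 and -66) and Slfn5 (chr11:82951852-82952101, match at -155).
Cxcl10: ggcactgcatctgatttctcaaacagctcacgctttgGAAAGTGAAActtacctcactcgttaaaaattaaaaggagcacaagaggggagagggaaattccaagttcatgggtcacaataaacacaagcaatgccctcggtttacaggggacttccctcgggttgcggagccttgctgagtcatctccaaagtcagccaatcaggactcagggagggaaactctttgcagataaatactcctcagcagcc
Gbp2: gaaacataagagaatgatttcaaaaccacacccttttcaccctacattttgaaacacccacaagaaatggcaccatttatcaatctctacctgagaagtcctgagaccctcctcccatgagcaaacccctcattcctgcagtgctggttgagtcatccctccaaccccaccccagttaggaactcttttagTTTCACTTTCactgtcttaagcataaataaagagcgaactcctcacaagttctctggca
Isg15: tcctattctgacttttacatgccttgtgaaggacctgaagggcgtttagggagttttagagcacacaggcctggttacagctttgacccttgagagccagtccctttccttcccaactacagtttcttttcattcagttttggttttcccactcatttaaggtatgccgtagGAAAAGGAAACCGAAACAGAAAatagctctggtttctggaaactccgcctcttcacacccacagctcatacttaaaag
Slfn5: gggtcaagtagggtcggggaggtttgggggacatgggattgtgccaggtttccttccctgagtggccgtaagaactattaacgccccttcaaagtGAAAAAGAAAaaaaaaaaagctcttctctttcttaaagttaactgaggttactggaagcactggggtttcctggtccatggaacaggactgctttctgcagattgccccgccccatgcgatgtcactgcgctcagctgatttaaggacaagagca
The first 3 of these genes were called lower with siOCT4 and Slfn5 higher. The window of Slfn5 lies before the start of its RefSeq gene, upstream of the start of the transcript that the study's table names. The AP-1 element TGACTCA, searched on both strands, was in 1466 of the 32851 windows (4.46%), in 3 of 107 of the lower and 0 of 58 of the higher. A match is a description of letters and not a shown binding site.

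Knockdown of Oct4 moved a few percent of the transcripts in either class. A transcript was called where limma gave a Benjamini-Hochberg adjusted p under 0.05 and the fold change was at least 1.5. Of the lncRNA probes 4.74% were called higher and 2.32% lower, and of the mRNA probes 3.85% and 1.98%, as shown in the plot of fold change against adjusted p. The rises were also larger in number at every size: 1184 lncRNA probes rose at least 2-fold against 410 that fell, and 45 against 7 passed 8-fold. For mRNA probes 564 rose and 224 fell at least 2-fold, and 22 against 8 passed 8-fold. Probes called higher were dimmer in control cells than those called lower, and brighter in knockdown cells. The median siNT-DMSO signal, on the normalized log2 scale, was 6.19 for lncRNAs called higher, 7.16 for those called lower and 6.48 for all lncRNA probes tested, and for mRNAs it was 6.58, 7.94 and 7.12. The median siOCT4-DMSO signal was 7.6 for lncRNAs called higher and 6.07 for those called lower, and 7.99 and 6.67 for mRNAs. Each group's signal is a term of the fold change, so the call itself favours these orders.

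**Figure D1:**
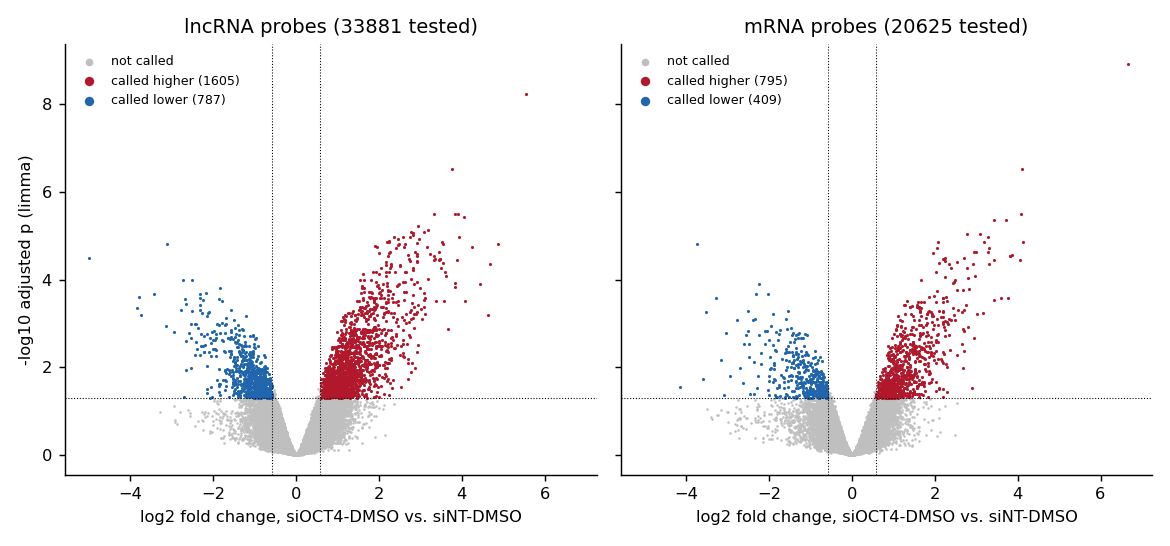
Log2 fold change of siOCT4-DMSO vs. siNT-DMSO (x axis) against -log10 of limma's adjusted p (y axis) for lncRNA probes (left) and mRNA probes (right), with dotted lines at a 1.5-fold change and an adjusted p of 0.05. Each point is a probe, red if called higher (1605 lncRNA, 795 mRNA), blue if called lower (787 and 409), grey otherwise.

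The excess of rises depends on how the arrays are scaled. With each array set to its 75th percentile in place of quantile normalization, 1335 lncRNA probes were higher and 1880 lower, and 720 mRNA probes higher and 946 lower, and the median of all probes moved from -0.06 to -0.21 on the log2 scale. The arrays also lie on 2 slides, and siOCT4-DMSO replicate 3 is the only one of the 6 on slide 2. Among lncRNAs called higher, its median difference from the siNT-DMSO mean was 1.03 on the log2 scale, against 1.42 and 1.31 in replicates 1 and 2, and it was the weakest of the 3 in 59.9% of these probes. Among lncRNAs called lower the 3 replicates had -0.99, -0.98 and -1.06. Without replicate 3 the calls rose to 2805 higher and 1107 lower lncRNA and 1515 higher and 549 lower mRNA probes, of which 2118 and 1080 were among the 2392 and 1204 called with it. A fit with slide as a block gives the same calls, since it takes the slide difference of siOCT4-DMSO from replicate 3 alone. Within slide 1 alone (replicates 1 and 2 against the 3 siNT-DMSO arrays) there were 1635 higher and 427 lower lncRNA and 782 higher and 192 lower mRNA probes. Among the fits that leave out 1 array, the number of calls was lowest without siNT-DMSO replicate 3, at 1162 lncRNA and 575 mRNA probes. Fitted on the 6 arrays alone, without the spread of the POVPC arrays, 520 lncRNA and 257 mRNA probes were called, and 31 of the 75 calls picked by the rule for named genes were lost.

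Some transcripts crossed the detection limit. In 53 lncRNA and 26 mRNA probes called higher, 0 of the 3 siNT-DMSO arrays and all 3 siOCT4-DMSO arrays had a signal well above background. The reverse held for 37 lncRNA and 12 mRNA probes called lower. The steepest rise of all mRNA probes was of this kind: ASMM10AP1B100016490V4, which has no name here, read 2.37 on each siNT-DMSO array and 9.13, 9.05 and 8.95 on the siOCT4-DMSO arrays. It was at least 52.2-fold higher with siOCT4 (adjusted p = 1.19e-09). The bound sets the mean of the bright group against the lowest signal that was well above background on each dim array. The log2 fold change of this probe was 6.67 in the main fit. It was 3.40 with normexp background correction, which is smaller than that bound. The steepest fall of an mRNA probe, ASMM10AP1B100167923V4, also without a name, went from 12.98, 10.11 and 12.70 to 9.43, 8.36 and 5.60 (log2 fold change -4.14, standard error 0.97, adjusted p = 0.0285). It rested on few arrays, since the call was lost without siNT-DMSO replicate 1 or 3 or siOCT4-DMSO replicate 2 (adjusted p up to 0.121) and within slide 1 (adjusted p = 0.111). The steepest lncRNA probes have no name here either. ASMM10LNC1A100079676V4 read 6.77, 6.62 and 6.61 in siNT-DMSO and 12.16, 12.30 and 12.14 in siOCT4-DMSO (46.5-fold higher, adjusted p = 5.99e-09), and ASMM10LNC1A100021113V4 read 9.13, 8.78 and 9.86 and then 3.82, 3.77 and 5.17 (32.0-fold lower, adjusted p = 3.24e-05). In these 2 the groups lay more than 3 log2 units apart.

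The largest rises among named mRNAs whose groups did not overlap were led by a cytokine, a ganglioside enzyme and a replication factor. Groups did not overlap in 790 of the 795 mRNA probes called higher and 405 of the 409 called lower, against 22.4% of all mRNA probes tested. Il7, a cytokine that lymphocytes need to survive, read 8.76, 8.50 and 8.90 in siNT-DMSO and 12.28, 12.75 and 13.51 in siOCT4-DMSO, 17.4-fold higher. Here replicate 3, from the other slide, was the highest. B4galnt1, which makes the complex gangliosides GM2 and GD2, read 6.56, 6.12 and 6.18 in siNT-DMSO and 9.42, 9.08 and 10.27 in siOCT4-DMSO (9.88-fold, adjusted p = 4.41e-05). Rfc1, the large subunit of the clamp loader of DNA replication, read 5.59, 4.98 and 5.07 in siNT-DMSO and 7.97, 7.64 and 7.32 in siOCT4-DMSO (log2 fold change 2.43, standard error 0.22, adjusted p = 0.000117). In these genes every siOCT4-DMSO array lay above every siNT-DMSO array by more than the range within either group.

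Itgad, an integrin alpha chain of leukocytes, rose from 6.31, 6.02 and 6.26 to 8.51, 8.13 and 8.67 (4.72-fold, adjusted p = 3.24e-05). Fbxw2, a substrate receptor of an SCF ubiquitin ligase, read 6.17, 4.74 and 4.34 in siNT-DMSO and 7.07, 7.30 and 7.45 in siOCT4-DMSO (adjusted p = 0.00775), and its control arrays were the more spread group. Aff3, a nuclear factor of the family found in transcription elongation complexes, rose 4.46-fold with its lowest siOCT4-DMSO value, 7.01, in replicate 3. Dtx3, a ubiquitin ligase of the Deltex family linked to Notch signalling, rose from 7.24, 8.01 and 7.23 to 10.24, 9.83 and 8.69 (4.27-fold, adjusted p = 0.00634), again lowest in replicate 3. Cers3, a ceramide synthase for very long acyl chains, went from 5.55, 5.95 and 6.07 to 7.34, 7.58 and 7.99 (adjusted p = 0.00195). Inpp4b, a phosphatase of the PI3K pathway, rose from 4.95, 4.52 and 3.40 to 6.85, 6.21 and 6.14 (adjusted p = 0.0309). That call was lost without siNT-DMSO replicate 3, siOCT4-DMSO replicate 1 or 2 or siOCT4-POVPC replicate 2 (adjusted p up to 0.129) and within slide 1 (adjusted p = 0.0894).

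**Figure D2:**
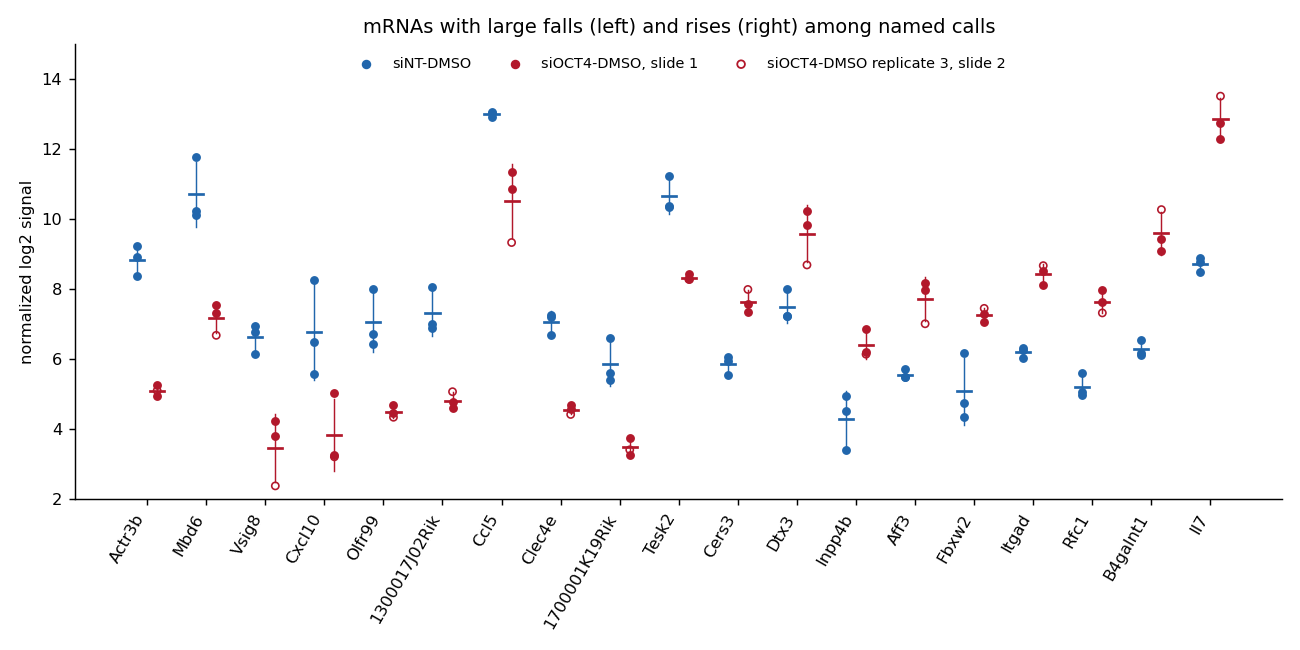
Normalized log2 signal (y axis) on each array for the mRNAs with the 10 largest falls and 9 of the 10 largest rises among named calls without overlap (x axis, in order of fold change). Blue points are the 3 siNT-DMSO arrays, filled red points siOCT4-DMSO replicates 1 and 2 on slide 1, the open red point replicate 3 on slide 2, and bars give the mean ± SD (n = 3). The groups are apart in every gene shown.

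The 10 largest falls included an actin regulator, a chromatin protein, chemokines and a macrophage receptor. Actr3b, a paralog of the ARP3 subunit of the complex that nucleates branched actin, read 8.91, 8.38 and 9.23 in siNT-DMSO and 4.96, 5.25 and 5.10 in siOCT4-DMSO, 13.3-fold lower. Mbd6, a methyl-CpG-binding-domain protein of a histone H2A deubiquitinase complex, read 10.23, 10.11 and 11.77 in siNT-DMSO and 7.33, 7.55 and 6.68 in siOCT4-DMSO (log2 fold change -3.52, standard error 0.41, adjusted p = 0.000555). A second probe named Mbd6 had a log2 fold change of -0.16 (adjusted p = 0.612), so the fall was seen with 1 of 2 probes. Vsig8, an immunoglobulin-domain membrane protein, fell from 6.77, 6.16 and 6.95 to 3.80, 4.22 and 2.38, lowest in replicate 3 (8.97-fold, adjusted p = 0.00681). It was well above background on 2 of 3 siOCT4-DMSO arrays. With normexp background correction its log2 fold change was -1.18, against -3.16 in the main fit. Tesk2, a kinase that phosphorylates the actin-severing protein cofilin, went from 10.34, 10.36 and 11.24 to 8.29, 8.42 and 8.28 (4.97-fold, adjusted p = 0.000214), with little spread in the knockdown group.

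The odorant receptor Olfr99 read 6.42, 6.72 and 8.00 in siNT-DMSO and 4.46, 4.70 and 4.34 in siOCT4-DMSO (adjusted p = 0.00182). 1300017J02Rik, also known as inhibitor of carbonic anhydrase, fell from 6.89, 7.01 and 8.07 to 4.60, 4.78 and 5.07 (5.67-fold, adjusted p = 0.000525). 1700001K19Rik went from 5.39, 5.61 and 6.61 to 3.27, 3.75 and 3.41 (5.25-fold, adjusted p = 0.000809) and was well above background on 1 of 3 siOCT4-DMSO arrays. In Mbd6, Tesk2, Olfr99, 1300017J02Rik and 1700001K19Rik alike, siNT-DMSO replicate 3 was the highest array.

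Calls among cytokine, chemokine and NF-κB genes went both ways. Of 25 probes named for 24 genes of this list, 5 were called lower, 2 higher and 18 not called, and their median log2 fold change was -0.73, against -0.06 over all mRNA probes. For comparison, 12.2% of all named mRNA probes were called lower and 7.48% higher, and the POVPC list that gave most names held 106 called lower against 41 higher among 857 probes. Falls thus outnumber rises among the named mRNAs as a whole, and neither the counts of this list nor those of the lists below were shown to stand apart from these shares. Ccl5, a chemokine for T cells and monocytes, read 13.04, 13.05 and 12.91 in siNT-DMSO and 10.86, 11.35 and 9.33 in siOCT4-DMSO (log2 fold change -2.49, standard error 0.43, adjusted p = 0.00576). Cxcl10, a chemokine induced by interferon, read 5.57, 8.27 and 6.48 in siNT-DMSO and 3.27, 5.03 and 3.21 in siOCT4-DMSO (7.66-fold lower, adjusted p = 0.0154). Its control arrays spread by more than 2 log2 units, 1 of 3 siOCT4-DMSO arrays was well above background, and the call was lost without siOCT4-DMSO replicate 1 (adjusted p = 0.0653), within slide 1 (adjusted p = 0.0921) and with normexp background correction (adjusted p = 0.0654). Rel, an NF-κB subunit, fell from 13.58, 14.44 and 14.09 to 12.33, 12.93 and 12.28 (2.87-fold, adjusted p = 0.00445). Within slide 1 alone, 3 of the 25 probes were called lower and 1, Il7, higher. Fitted on the 6 arrays alone, Ccl5 (adjusted p = 0.0705), Rel (0.069) and Cxcl10 (0.142) did not pass.

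The interferon-stimulated list was split. Of 11 probes, 4 were called lower and 2 higher, with a median log2 fold change of -0.52. Isg15, a ubiquitin-like protein, fell from 8.84, 9.31 and 9.20 to 7.50, 8.20 and 7.65 (2.53-fold, adjusted p = 0.00365, but 0.0646 with the 6 arrays alone). Gbp2, a guanylate-binding GTPase named here for its promoter, had means of 10.60 and 8.31 on the log2 scale (adjusted p = 0.0296, standard error of the difference 0.54). Ccl5 and Cxcl10 are the other members that fell. In contrast, Dhx58, which encodes the RNA sensor LGP2, rose from 7.08, 7.23 and 7.45 to 8.91, 9.11 and 8.37 (2.91-fold, adjusted p = 0.00342). Slfn5, of the Schlafen family, rose from 4.64, 4.58 and 4.72 to 6.05, 5.87 and 6.01 (2.51-fold, adjusted p = 0.000304). Dhx58 and Slfn5 were named through the study's antisense pairs chosen on these samples, while the members that fell came from the POVPC list.

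Among immediate early and growth factor feedback genes, 5 of 16 probes were called lower and 1 higher, against 12.2% and 7.48% of all named mRNA probes. Of the 16, 14 had a negative fold change, and the median was -0.76 on the log2 scale. Klf11, a Krüppel-like transcription factor induced by TGFβ, went from 10.30, 10.36 and 11.02 to 8.43, 9.04 and 8.89 (3.43-fold lower, adjusted p = 0.00242). Ier5, an early response gene, went from 11.25, 12.46 and 11.71 to 10.17, 10.27 and 10.16 (3.04-fold lower, adjusted p = 0.0038). Nr4a1, an orphan nuclear receptor switched on within minutes of stimulation, went from 6.75, 7.32 and 7.68 to 5.78, 6.11 and 5.55 (2.7-fold lower, adjusted p = 0.00541). For each of these 3 the groups were apart. Within slide 1 alone, 4 of the 16 were called lower and 0 higher, and Klf11 (adjusted p = 0.0185), Ier5 (0.0332) and Nr4a1 (0.0445) were among the 4. Fitted on the 6 arrays alone, Ier5 (adjusted p = 0.0702) and Nr4a1 (0.0769) did not pass.

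Genes of the contractile and actin apparatus moved in both directions. Of 12 probes, 3 were called higher and 2 lower, with a median log2 fold change of -0.05. The marker Tagln, an actin-binding protein of differentiated SMC, fell from 5.45, 5.54 and 5.23 to 4.35, 4.72 and 4.77 (1.73-fold, adjusted p = 0.0317). This call was lost without any of the siNT-DMSO arrays, siOCT4-DMSO replicate 1 or 2 or siOCT4-POVPC replicate 3 (adjusted p up to 0.119) and within slide 1 (adjusted p = 0.0614). Csrp1, a LIM protein of the actin cytoskeleton, read 9.0, 8.46 and 8.70 in siNT-DMSO and 8.14, 7.96 and 8.30 in siOCT4-DMSO and did not pass (adjusted p = 0.055), although it did in 6 alternatives, such as without siOCT4-DMSO replicate 3 (0.0316). Smtn (smoothelin) read 5.54, 5.36 and 5.09 in siNT-DMSO and 4.38, 5.19 and 4.77 in siOCT4-DMSO, so its groups overlapped (adjusted p = 0.173, but 0.0495 with 75th percentile scaling). Lima1, which crosslinks actin filaments, rose from 6.42, 6.48 and 6.22 to 7.29, 7.34 and 7.06 (1.81-fold, adjusted p = 0.0061). Crip2, a LIM-domain protein of vascular cells, had means of 8.13 and 8.95 on the log2 scale (adjusted p = 0.0251), a call lost without siNT-DMSO replicate 3 or siOCT4-DMSO replicate 1 or 2 (adjusted p up to 0.108) and within slide 1 (adjusted p = 0.0647). None of the 21 probes for extracellular matrix and mesenchymal genes was called by limma, and their median was -0.11. The collagen Col4a5 had a log2 fold change of 0.55 (adjusted p = 0.0481, below the fold limit) and the integrin Itga9 had -0.73 (adjusted p = 0.0911, but 0.0278 with 75th percentile scaling).

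Signalling genes had calls in either direction. Of 22 probes for axon guidance and growth factor receptors, 3 were called higher and 2 lower, with a median of 0.47. Pdgfc, a growth factor for mesenchymal cells, rose from 5.18, 5.09 and 4.95 to 6.60, 6.20 and 5.85 (2.21-fold, adjusted p = 0.00657). Sema4d, a semaphorin, rose from 4.38, 4.44 and 4.35 to 5.22, 5.18 and 5.19 (1.74-fold, adjusted p = 0.012), which did not pass with 75th percentile scaling (adjusted p = 0.153) or normexp (adjusted p = 0.0586). Nrp2, a co-receptor for semaphorins and VEGF, fell from 11.95, 12.14 and 11.56 to 10.58, 11.16 and 9.84 (2.56-fold, adjusted p = 0.0208). The Nrp2 call was lost without siNT-DMSO replicate 1 or 2 or siOCT4-DMSO replicate 1 (adjusted p up to 0.0618) and within slide 1 (adjusted p = 0.0805).

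Of 11 insulin and PI3K probes, Inpp4b was called higher and Lipe, the hormone-sensitive lipase, lower. Lipe read 7.90, 7.33 and 8.23 in siNT-DMSO and 6.93, 6.73 and 5.92 in siOCT4-DMSO (adjusted p = 0.0175), lowest in replicate 3, and was not called without siNT-DMSO replicate 3 (adjusted p = 0.08) or within slide 1 (adjusted p = 0.0746). Of 17 calcium and ion channel probes, 1 was called higher and 3 lower. Kcnq1, a potassium channel subunit, rose from 6.47, 6.40 and 6.71 to 7.64, 7.84 and 8.53 (2.78-fold, adjusted p = 0.00258). Kcnh2, another potassium channel, fell 1.65-fold (adjusted p = 0.0257) and Clic4, an intracellular chloride channel protein, 1.75-fold (adjusted p = 0.0424). These falls were less stable: the Kcnh2 call was lost without siNT-DMSO replicate 1 or 3 or siOCT4-DMSO replicate 1 or 2 (adjusted p up to 0.109), the Clic4 call without any of 9 single arrays (all except siNT-POVPC replicate 3 and siOCT4-DMSO replicates 2 and 3, adjusted p up to 0.153), and both within slide 1 (adjusted p = 0.103 for each).

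Phagocytosis, lysosome and lipid uptake genes gave 2 calls higher and 3 lower of 19 probes, near the 7.48% and 12.2% of all named mRNA probes. Itgad, described above, was the largest rise. Clec4e, a lectin receptor of macrophages that senses mycobacterial glycolipid and dead cells, fell from 7.27, 7.20 and 6.68 to 4.57, 4.69 and 4.42 (5.63-fold, adjusted p = 0.00286). Fpr3, a formyl peptide receptor, fell from 6.71, 6.85 and 7.32 to 5.31, 5.52 and 5.44 (2.91-fold, adjusted p = 0.000512). For both, the groups were far apart.

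Nuclear genes were divided. Of 18 chromatin regulator probes, 3 were called higher and 3 lower. Dpf2, a subunit of BAF chromatin remodelling complexes, rose from 4.55, 5.12 and 4.34 to 6.32, 6.41 and 6.42 (3.29-fold, adjusted p = 0.00161), and Scml4, a Polycomb-related protein, fell from 5.21, 5.31 and 5.62 to 3.97, 4.39 and 3.89 (adjusted p = 0.00487). Of 25 probes for homeobox and lineage transcription factors, 4 were called higher and 2 lower. Tfap2a, an AP-2 factor of neural crest and skin, rose from 5.23, 5.14 and 5.31 to 6.29, 6.33 and 6.34 (2.13-fold, adjusted p = 0.00116). Casz1, a zinc finger factor of heart and vessel development, rose from 6.21, 6.37 and 6.29 to 7.59, 7.29 and 8.40 (2.77-fold, adjusted p = 0.00489), highest in replicate 3. Of 4 pluripotency and germline probes 0 were called by limma: Nanos3, a germ cell factor, had a log2 fold change of -0.77 (adjusted p = 0.0521, but 0.0378 with 75th percentile scaling and under 0.05 in 5 other alternatives) and Ctcfl, the testis paralog of CTCF, -0.16 (adjusted p = 0.641).

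Replication and cell division genes had 2 calls higher and 3 lower of 16 probes. Stil, a centriole assembly factor, rose from 3.48, 4.17 and 4.17 to 5.55, 5.87 and 4.97 (adjusted p = 0.00709), which did not pass with 75th percentile scaling (adjusted p = 0.072). Kif14, a mitotic kinesin, fell from 4.25, 4.56 and 5.13 to 3.41, 2.96 and 3.59 (adjusted p = 0.00632), which did not pass with normexp (adjusted p = 0.0639). Ribosome and translation genes were mostly below 0: 22 of 23 probes had a negative fold change, with a median of -0.43, but 2 passed, and 0 within slide 1. The median over all mRNA probes was -0.06. The list was bright, with a median siNT-DMSO level of 12.6 against 7.12 for all mRNA probes, and whether it stands apart from equally bright probes was not tested. Urb1, needed for the large ribosomal subunit, fell from 10.22, 10.28 and 9.99 to 8.71, 8.85 and 9.07 (2.44-fold, adjusted p = 0.0177), a call lost without siOCT4-DMSO replicate 1 or 2 (adjusted p up to 0.0704) and within slide 1 (adjusted p = 0.0613). Rpl23, a protein of that subunit, fell 1.51-fold (adjusted p = 0.0406), just past the fold limit, and lost its call on removal of any 1 of 10 arrays (adjusted p up to 0.144), the other two being siOCT4-DMSO replicate 2 and siNT-POVPC replicate 3, within slide 1 (0.147) and with 75th percentile scaling (0.102). Of 16 sterol and fatty acid synthesis probes, 13 had a positive fold change, with a median of 0.62, and 0 were called by limma. Mvk, mevalonate kinase, read 4.15, 2.98 and 5.02 in siNT-DMSO and 5.97, 5.75 and 4.79 in siOCT4-DMSO, and Lss, lanosterol synthase, 6.56, 7.57 and 6.76 and then 8.05, 8.79 and 7.29, so both overlapped (adjusted p = 0.133 and 0.147).

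**Figure D3:**
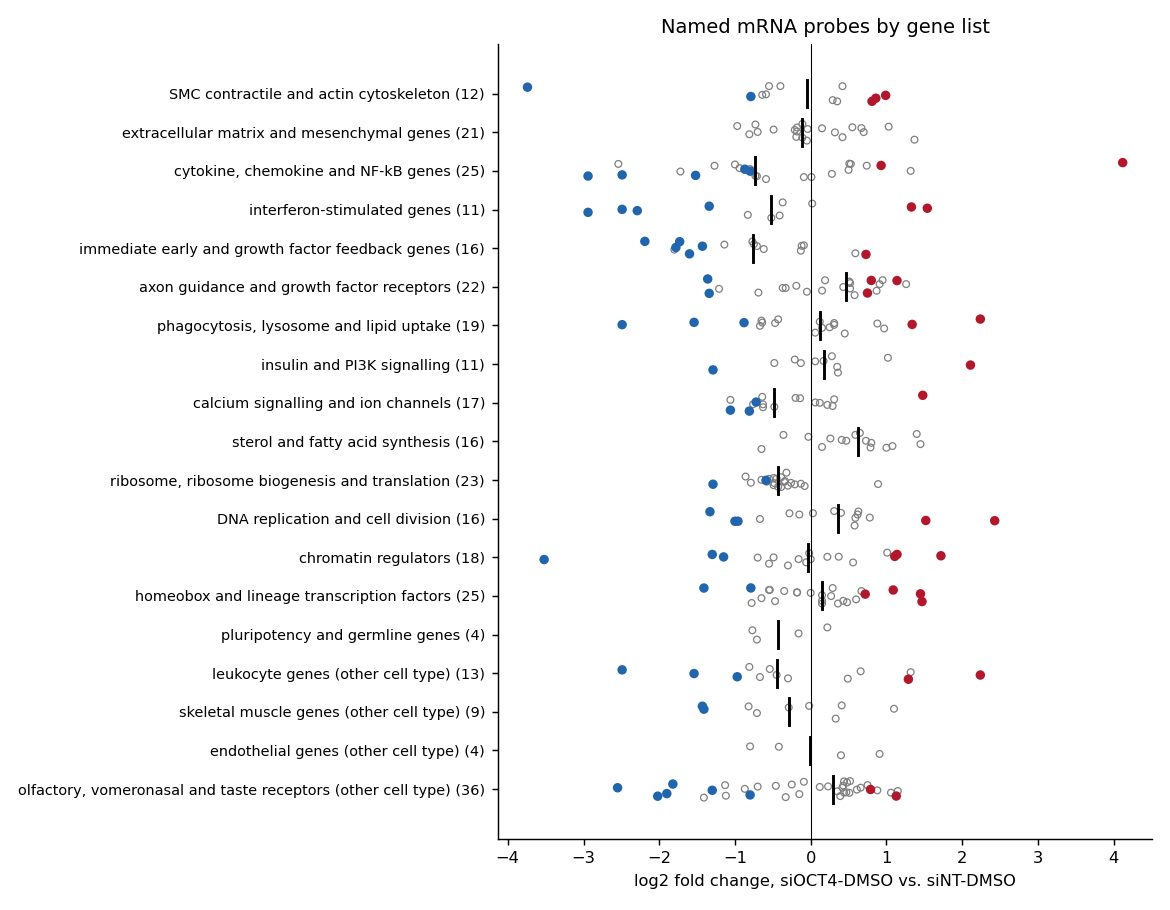
Log2 fold change of siOCT4-DMSO vs. siNT-DMSO (x axis) for the named mRNA probes of 19 gene lists (y axis, number of probes in parentheses). Filled points were called (red higher, blue lower), open points were not, and the black tick is the list's median, which is lowest for the immediate early (-0.76) and cytokine lists (-0.73) and highest for sterol and fatty acid synthesis (0.62).

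Genes typical of other cell types were also read. Of 13 leukocyte probes, 2 were called higher and 3 lower. The log2 of their summed signal was 13.3 to 13.8 in siNT-DMSO and 14.8 in each siOCT4-DMSO array, set mainly by 1 bright probe: Cd22, a B-cell receptor, read 13.57, 13.71 and 13.11 in siNT-DMSO and 14.76, 14.77 and 14.73 in siOCT4-DMSO (2.45-fold, adjusted p = 0.00128). The calls in this list went both ways, with Itgad and Cd22 higher and Clec4e, Fpr3 and Madcam1, an adhesion molecule for lymphocytes, lower. Apart from Vav1 and Gzmf, which were above background on 1 and 2 of the 3 siOCT4-DMSO arrays, its probes were above background on all 6 arrays. Of 9 skeletal muscle probes 2 were called, and both were lower. Myod1, the myogenic factor, fell from 5.24, 5.02 and 5.32 to 4.11, 3.81 and 3.42 (adjusted p = 0.00775), a call lost within slide 1 (adjusted p = 0.0521), and Smpx, a small muscle protein, fell 2.7-fold (adjusted p = 0.00739). Of 4 endothelial probes none was called by limma, with Notch4 at a log2 fold change of 0.91 (adjusted p = 0.111) and Clec1b at -0.80 (adjusted p = 0.169). The Notch4 difference passed within slide 1 (adjusted p = 0.0235), where replicate 3, its lowest siOCT4-DMSO array, is absent. Of 36 probes for odorant, vomeronasal and taste receptors, 6 were called lower and 2 higher, near the 12.2% and 7.48% of all named mRNA probes. Olfr1440 fell from 6.94, 7.15 and 7.68 to 5.02, 5.46 and 5.60 (adjusted p = 0.000601), while Olfr1493-ps1 and Vmn2r73 were above background on all siNT-DMSO arrays and on none of the siOCT4-DMSO arrays, at least 1.91-fold (adjusted p = 0.000211) and 1.83-fold lower (adjusted p = 0.00156). With normexp background correction both had a log2 fold change of -0.37, smaller than these bounds and under the fold limit. In bulk RNA, fewer cells of a type and less RNA per cell cannot be told apart, and the part of such cells in the results above was not tested.

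Named lncRNAs moved in both directions. Of the 391 named lncRNA probes, 17.1% were called higher and 5.88% lower. The lncRNA list from the POVPC comparison holds only transcripts that were low in the shared siNT-DMSO arrays relative to POVPC, and 46 of its 298 probes were called higher here and 0 lower. Gm28821 (intronic antisense to Kcnq1, chromosome 7 from 143135031 to 143140608, minus strand) had the largest rise, from 7.37, 7.44 and 7.66 to 11.14, 11.27 and 11.32 (13.5-fold, adjusted p = 3.03e-07). 4931431B13Rik (natural antisense to Itgad) rose from 6.04, 6.36 and 6.08 to 9.35, 9.45 and 8.96 (8.52-fold, adjusted p = 8.32e-06). The ultraconserved element transcript uc.7, within Casz1, rose from 5.58, 5.80 and 5.90 to 8.51, 8.66 and 8.36 (6.74-fold, adjusted p = 1.05e-05). In these 3 the spread within each group was small next to the shift, and replicate 3 lay close to the others.

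Gm15589 (intronic antisense to Kcnh2) rose from 11.28, 10.81 and 10.90 to 13.36, 13.07 and 13.99 (adjusted p = 0.000126). A longer isoform of Gm16152, intronic antisense to Aff3, rose from 5.63, 5.16 and 5.01 to 8.55, 8.05 and 6.92 (5.95-fold, adjusted p = 0.00138), lowest in replicate 3 as Aff3 was. AK156936 rose from 4.32, 4.09 and 4.57 to 6.97, 6.72 and 6.77 (5.63-fold, adjusted p = 1.56e-05). The largest falls were in 4930579O11Rik (intronic antisense to Inpp4b), from 8.10, 8.41 and 8.89 to 5.64, 5.46 and 4.92 (8.73-fold, adjusted p = 0.00116), and Gm17201 (natural antisense to Ankrd52), from 8.45, 8.62 and 9.14 to 6.76, 6.94 and 6.72 (3.81-fold, adjusted p = 0.00169). Gm17057 (natural antisense to Lima1) fell from 6.52, 6.77 and 7.21 to 5.11, 4.74 and 5.38 (3.38-fold, adjusted p = 0.00255). Transcripts of Gm20319 (natural antisense to Il1rap) fell 2.94-fold and 3.05-fold with separate probes (adjusted p = 0.00425 and 0.00423). AK048895, within Akap6, was well above background on all siNT-DMSO arrays and on none of the siOCT4-DMSO arrays, at least 1.72-fold lower (adjusted p = 0.0137). Its call was lost without siNT-DMSO replicate 3 or siOCT4-DMSO replicate 2 (adjusted p up to 0.0562) and within slide 1 (adjusted p = 0.0576). With normexp background correction its log2 fold change was -0.35, smaller than that bound and under the fold limit.

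Probe sequences show which stretch of RNA such a value reads, and were at hand for lncRNAs of the POVPC list. The probes of its steepest antisense riser and its 2 steepest intergenic risers are given 5′ to 3′, in lower case throughout since no part is singled out. AK156936 spans chr8:46144845-46146661 (plus strand), humanlincRNA0052, by its name the counterpart of a human lincRNA, chr3:147737095-147761636 (plus strand) and A530017D24Rik chr11:61865203-61868058 (minus strand). Coordinates are those of the study's tables, which fit GRCm38: of 912 mRNAs found there by symbol, 910 overlapped.
AK156936: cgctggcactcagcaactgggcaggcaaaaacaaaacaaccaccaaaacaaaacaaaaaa
humanlincRNA0052: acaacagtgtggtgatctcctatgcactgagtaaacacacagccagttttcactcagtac
A530017D24Rik: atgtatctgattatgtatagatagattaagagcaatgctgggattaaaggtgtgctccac
The probes differ in base composition, with 43.3%, 45.0% and 36.7% G and C, and that of AK156936 ends in a run rich in A. humanlincRNA0052 had a log2 fold change of 2.13 (adjusted p = 0.000568) and A530017D24Rik 2.23 (adjusted p = 0.0179) in siOCT4-DMSO vs. siNT-DMSO.

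The study's list of antisense pairs holds 66 for this comparison, each an antisense lncRNA and the mRNA across from it. Its text gives a larger count of lncRNA and mRNA pairs, defined by genomic proximity. The study chose the 66 on these 6 arrays, so the count of moving pairs is a description and not independent evidence. The pairs hold 56 mRNAs and 65 lncRNA probes. In 36 pairs both transcripts were called, in 8 only the lncRNA, in 16 only the mRNA and in 6 neither. Of the 36, 17 moved in the same direction (14 both higher, 3 both lower) and 19 in opposite directions (15 with the lncRNA lower and the mRNA higher, 4 the reverse). Natural antisense pairs gave 9 in the same and 12 in opposite directions, and intronic antisense pairs 8 and 7. Where the lncRNA lies wholly within the mRNA gene the counts were 12 and 13, and where it reaches past it 5 and 6. No test of a difference between these classes was made. The number of pairs with both called depended on the arrays used. It was 15 within slide 1 and ran from 12 without siNT-DMSO replicate 3 to 52 without siNT-POVPC replicate 3, and with normexp background correction it was 14.

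**Figure D4:**
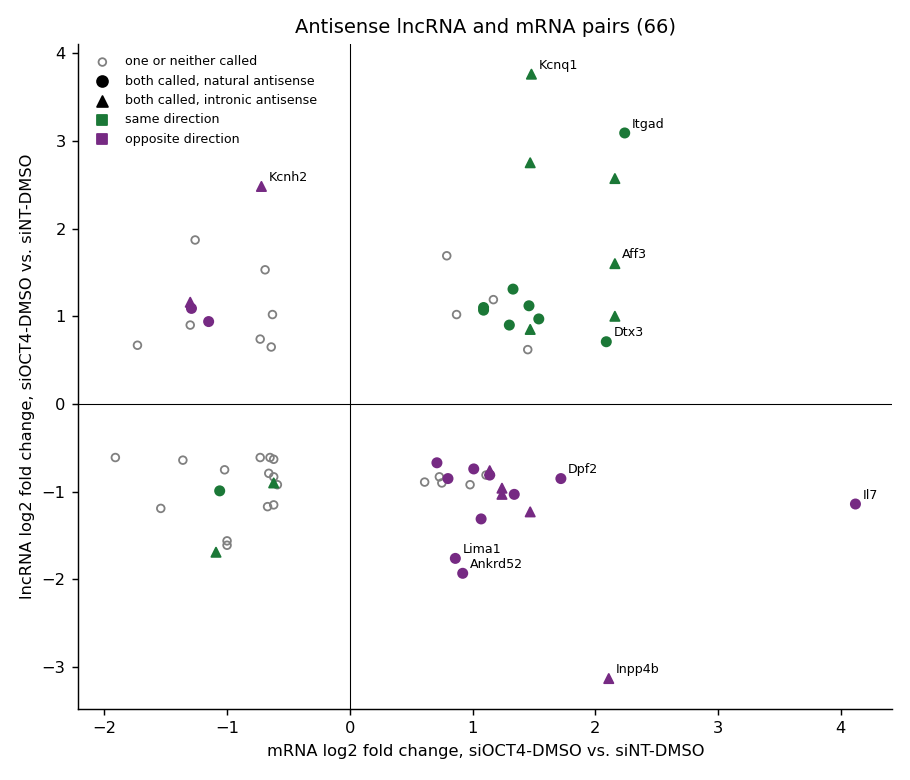
Log2 fold change (siOCT4-DMSO vs. siNT-DMSO) of the mRNA (x axis) and of its antisense lncRNA (y axis) for the 66 listed pairs. Filled symbols mark the 36 pairs with both transcripts called, circles for natural and triangles for intronic antisense, green for the same direction (17) and purple for opposite directions (19), and open grey circles mark the other pairs.

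Some pairs moved strongly together. Gm28821 and Kcnq1 both rose, as did 4931431B13Rik and Itgad. Gm47061, natural antisense to Tfap2a on chromosome 13, rose from 8.15, 7.96 and 8.37 to 9.29, 9.22 and 9.27 (adjusted p = 0.00184) beside the rise of Tfap2a. Within Aff3, Gm16150 rose 1.99-fold (adjusted p = 0.0109, and 0.0597 with 75th percentile scaling), and probes for both isoforms of Gm16152 rose. The pair AK048895 and Akap6, which encodes an anchoring protein for protein kinase A, fell together, with Akap6 going from 6.87, 6.41 and 6.55 to 5.57, 5.56 and 5.44 (2.12-fold, adjusted p = 0.0018).

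Others moved apart. Gm17057 fell while Lima1 rose, and 4930579O11Rik fell while Inpp4b rose. At Pdgfc, the intronic antisense AK037140 fell from 8.33, 8.27 and 8.56 to 7.60, 7.62 and 7.67 (1.69-fold, adjusted p = 0.0133) as Pdgfc rose, although the AK037140 call was lost without siNT-DMSO replicate 3 or siOCT4-DMSO replicate 1 (adjusted p up to 0.0608) and within slide 1 (adjusted p = 0.0582). Within Casz1, 3 ultraconserved transcripts on the opposite strand went different ways. uc.7 rose, while uc.2 (chromosome 4 from 148921882 to 148922089) fell from 7.37, 7.28 and 8.18 to 6.10, 6.40 and 6.64 (2.34-fold, adjusted p = 0.0145, lost without siOCT4-DMSO replicate 1 at an adjusted p of 0.0641). The third, uc.5, rose with a log2 fold change of 0.85 (adjusted p = 0.0224).

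In 4 of the 36 pairs the lncRNA starts within 1000 bases of the mRNA start on the other strand, so that the 5′ ends overlap. At Dpf2 (chromosome 19, minus strand, 5896516 to 5912871) the lncRNA Gm42067 (plus strand, 5912822 to 5914593) overlaps by 50 bases. It fell from 9.93, 10.24 and 9.99 to 9.25, 9.06 and 9.31 (1.8-fold, adjusted p = 0.00762) as Dpf2 rose. At Il7 the lncRNA Gm16685 overlaps by 189 bases and changed by -1.14 on the log2 scale (adjusted p = 0.0457, standard error 0.30). At Tmcc1 and Dtx3 the overlaps are 210 and 479 bases, and the lncRNAs Gm20404 and F420014N23Rik had log2 fold changes of 1.07 (adjusted p = 0.0279) and 0.71 (adjusted p = 0.0429), in the same direction as their mRNAs. Shared 5′ ends thus went with opposite changes in 2 pairs and the same direction in the other 2.

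The same knockdown was also made in cells treated with POVPC, on 6 other arrays that share none with this comparison, though all enter a common estimate of the spread. There, all siNT-POVPC arrays were on slide 1 and all siOCT4-POVPC arrays on slide 2, so that knockdown and slide cannot be told apart. In that comparison 7.49% of lncRNA probes were called higher and 4.45% lower, and 6.67% and 3.49% of mRNA probes. Of the 1605 lncRNA probes called higher with DMSO, 1567 (97.6%) also had a positive fold change with POVPC and 1279 (79.7%) were called higher. Of the 787 called lower, 724 (92.0%) had a negative one and 288 (36.6%) were called. The mRNA probes gave 778 of 795 and 386 of 409 with the same sign, and 621 and 125 called the same way. Over all probes tested, 68.6% had the same sign. In the calls that were higher the median log2 fold change was 1.26 with DMSO and 1.32 with POVPC for lncRNAs, whereas in those lower it was -1.02 and -0.57.

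**Figure D5:**
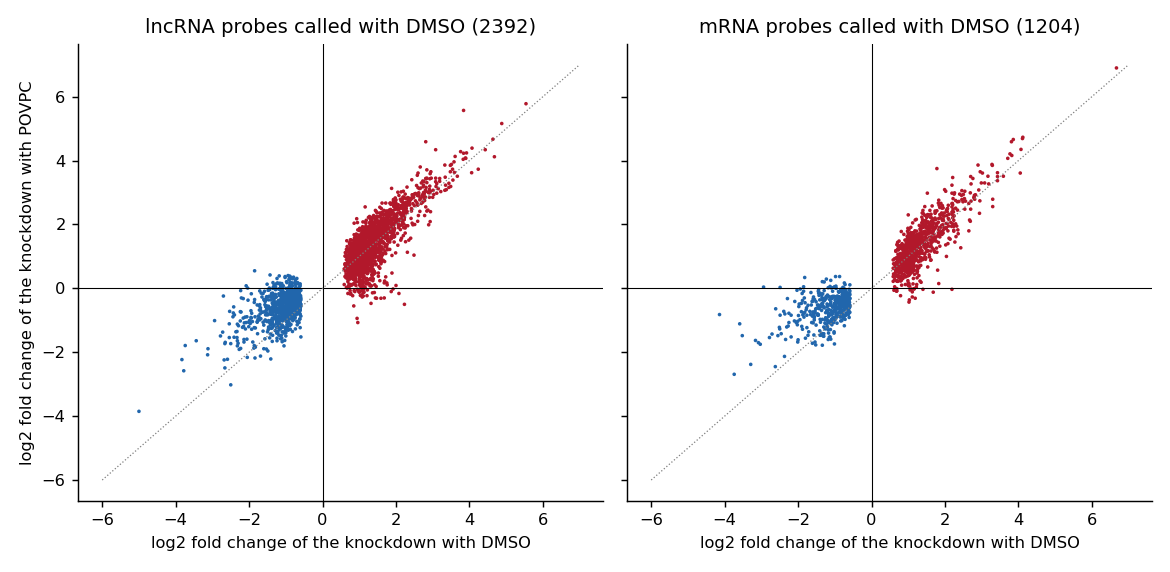
Log2 fold change of the Oct4 knockdown with DMSO (x axis) and with POVPC (y axis) for the lncRNA (left) and mRNA probes (right) called with DMSO, red if higher and blue if lower there. The dotted line marks equal values. Most red points lie near it, while many blue points lie between it and 0 on the y axis.

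Named genes followed either course. Il7 was higher by 4.73 on the log2 scale with POVPC (adjusted p = 3.9e-06), Gm28821 by 4.28 (adjusted p = 7.22e-08), 4931431B13Rik by 3.19 and Itgad by 1.79. Actr3b had -2.69 (adjusted p = 8.25e-05). Other genes showed a small difference between the groups with POVPC: Ccl5 had 0.03 (adjusted p = 0.97), Cxcl10 0.04 (adjusted p = 0.977), Fbxw2 -0.03 (adjusted p = 0.975) and Isg15 -0.36 (adjusted p = 0.307). The difference between the knockdown effects with and without POVPC was tested as an interaction, and limma called 0 of 54505 probes, with a smallest adjusted p of 0.135, although 4560 had an unadjusted p under 0.05. For Ccl5 and Cxcl10 its adjusted p was 0.562. A gene that passed with DMSO and not with POVPC was therefore not shown to differ between them. With slide as a block the interaction had 2374 calls, but that fit takes the slide difference from siOCT4-DMSO replicate 3 alone.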

How the data were processed

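RNA was labelled with Cy3 by random priming along the whole transcript and hybridised to 12 one-colour Agilent arrays, which the authors quantified in Agilent Feature Extraction 11.0.1.1. The scanner files the authors deposited hold background-subtracted, processed intensity per spot on a linear scale, and the deposited table of log2 values was quantile normalized by the authors. The comparison here started from the processed intensities. Spots flagged as outliers were left out, values below 5 were set to 5, log2 was taken and the 12 arrays were quantile normalized with limma 3.58.1 in R 4.3.3. Tests covered probes that 3 or more of the 12 arrays read well above background (49015 to 55326 probes per array were), and the number of arrays limits the precision. Group means over all 12 arrays were fitted with lmFit and eBayes, so that the 4 groups share 1 estimate of the spread, and Benjamini-Hochberg adjustment ran over both classes of probe together. A call needed an adjusted p under 0.05 and a change of at least 1.5-fold. With 3 arrays against 3, a two-sided exact permutation test of 1 value cannot go below 0.1, so none is given. The fit was also run on simulated data with independent noise, equal spread in the 4 groups and no slide effect. That run therefore cannot speak to the slides or to the shared estimate of the spread.

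Samples were grouped by their titles. Names came from the probe identifiers in the study's tables. Its list of antisense pairs gives transcripts without probes, so these were matched by value. A probe took a transcript's name if its p-value and fold change, by t-test on the authors' log2 values, equalled those listed. All 211 transcripts tried matched 1 probe each, and 48 of 48 matches that could be checked against the probe identifiers named the same transcript. The fold changes and p-values that those tables hold had no other use here. Named in the text were SMC markers, the 10 largest rises and 10 largest falls among named mRNA calls without overlap, the 6 largest of named lncRNAs each way, up to 3 called members of each of 20 gene lists by adjusted p (or 2 members where none was called), 12 antisense pairs, and the steepest probes of either class. Of these, 1 of the rises and 1 of the lists are not reported here. Genes, lists and members were chosen with earlier results of these data known. Tried instead were normexp background correction (offset 50), scaling to the 75th percentile, the authors' log2 values, a floor of 20, other filters, the 6 arrays alone, an intensity trend, the replicate number or slide as a block, slide 1 alone, the methods' t-test and leaving out each array. Promoter windows came from RefSeq tables for GRCm38.p6. Figures were drawn with matplotlib 3.10.9.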

Additional observations from a re-analysis of the deposited data

How the results depend on the processing

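The authors' log2 values gave 2397 lncRNA and 1206 mRNA calls with 37 pairs, close to the 2392, 1204 and 36 of the report. The number of lncRNA and mRNA calls moved by more than 1.5 times with the 6 arrays alone (520 lncRNA, 257 mRNA, 5 pairs). It also did with slide as a block (3912 and 2064, with 2374 calls for the interaction), where the pairs stayed close at 33. With the unadjusted p of limma beside the fold limit it reached 5750 and 3187 (64 pairs, 4179 for the interaction). The methods' t-test after Benjamini-Hochberg adjustment gave 51, 21 and 0. The count of pairs alone moved with normexp (14, beside 1650 lncRNA and 910 mRNA calls), within slide 1 (15) and with a replicate block (23). With the methods' t-test unadjusted, too, only the pairs moved by that much (66, beside 3336 and 1719 calls). Leaving out 1 array gave 1162 to 3912 lncRNA calls, 575 to 2064 mRNA calls and 12 to 52 pairs, the fewest without siNT-DMSO replicate 3. It gave 1279, 648 and 13 without siOCT4-DMSO replicate 1, and 1550, 775 and 16 without its replicate 2. The most lncRNA and mRNA calls came without siOCT4-DMSO replicate 3 and the most pairs without siNT-POVPC replicate 3. Of the 75 called probes picked by the rule for named genes, 35 kept their call in every alternative except the methods' t-test. Ctcfl, not called, turned from -0.16 to 0.01 (log2) without siNT-DMSO replicate 3, with an adjusted p of 0.988, the highest of its values with 1 array left out, which began at -0.25 without siNT-DMSO replicate 2. With the 6 arrays alone 31 of these 75 calls were lost: Nrp2, Clic4, Rel, Isg15, Ier5, Inpp4b, Casz1, Tagln, Nr4a1, Lima1, Kif14, Lipe, Kcnh2, Rpl23, Fbxw2, Akap6, Crip2, Ccl5, Stil, Cxcl10, Sema4d, Pdgfc, Dtx3, Kcnq1, both probes of Gm20319, Gm42067, Gm16150, AK037140, uc.2 and the unnamed ASMM10AP1B100167923V4. Their adjusted p-values there ran from 0.0575 (Akap6) to 0.219 (Rpl23). The cause of these shifts was not tested.

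With the replicate number as a block there were 2031 lncRNA and 978 mRNA calls and 23 pairs. Deviations of same-numbered arrays from their group means correlated at 0.149, 0.362 and -0.00808 for numbers 1, 2 and 3. The value for number 2 was the highest of all pairings, and other pairings of either replicate 2 ran from -0.295 to -0.0286. Whether same-numbered arrays share a culture or a batch is not given and was not tested. The array siNT-DMSO replicate 3 correlated better with siOCT4-DMSO replicate 1 (0.238) than with its own number.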
